A study of Mus musculus with 24 samples.

Results

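The axonemal dynein heavy chains Dnah1, Dnah2, Dnah5, Dnah6, Dnah9, Dnah11 and Dnah12 were followed through hippocampal microarrays of mice whose fathers or grandfathers had eaten a diet rich in methyl donors. The genes were listed by name, and every probe whose identifier on the array mapped to one of them was taken. Of the 7 genes, 6 had a probe and each of these had exactly 1, so the family was read by 6 of the 39429 distinct probes. Dnah12 matched none of the 26062 probes with a gene symbol and has no value here.

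Hippocampal RNA was hybridised in 1 colour (Cy3) to 24 Agilent arrays, 6 in each of 4 groups, and each array held RNA pooled from 4 mice. CD F1 and MD F1 were the offspring of males kept on a control diet from Envigo or on the experimental methyl donor diet 3MS ZM for 6 weeks before mating. That diet carried added methionine (7.5 g), choline (15 g), betaine (15 g), folic acid (15 mg), vitamin B12 (1.5 mg) and zinc (150 mg). CD F2 and MD F2 were the next generation, sired by F1 males of either line with CD F1 females. The mice of all 4 groups ate the control diet themselves. The labels give their age as 4 weeks, while the methods call them adult. The F1 mice are labelled congenic C57BL/6J x 129S6/SvEv hybrids and the F2 mice mixed C57BL/6J x 129S6/SvEv hybrids. No source used here ties a pool to litters or to fathers, so the p-values measure the spread between pools.

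Axonemal dynein heavy chains are the motor subunits of motile cilia: large ATPases that walk along one microtubule doublet and bend the axoneme against the next. Dnah5, Dnah9 and Dnah11 belong to the outer dynein arms, which power the beat, and Dnah1, Dnah2, Dnah6 and Dnah12 to the inner arms, which shape it. In the brain they are known from the multiciliated ependymal cells that line the ventricles and move cerebrospinal fluid, and ciliary genes are also transcribed in the neighbouring choroid plexus epithelium. In a bulk sample, fewer cells of such a type and less RNA per cell cannot be told apart.

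The promoter sequences of the 4 genes on which the results below turn are shown because genes of motile cilia are widely known to be driven by RFX factors, which bind X-box motifs, and by the forkhead factor Foxj1. Each is the 250 bases before a RefSeq transcription start (GRCm38.p6), read 5′ to 3′ on the strand of the gene, and capitals mark matches to the X-box half-site GTTGC on either strand or to a full X-box of that half-site and its reverse complement GCAAC with 1 to 3 free bases between them. The windows are chr6:73221632-73221881 (minus strand) for Dnah6, chr15:28203516-28203765 (plus strand) for Dnah5, chr12:118199044-118199293 (minus strand) for Dnah11 and chr11:69549109-69549358 (minus strand) for Dnah2. All 250 bases of the Dnah6 and Dnah5 windows lay inside the annotated span of their own gene, which begins further upstream, and the Dnah11 and Dnah2 windows lay directly upstream of theirs.
Dnah6: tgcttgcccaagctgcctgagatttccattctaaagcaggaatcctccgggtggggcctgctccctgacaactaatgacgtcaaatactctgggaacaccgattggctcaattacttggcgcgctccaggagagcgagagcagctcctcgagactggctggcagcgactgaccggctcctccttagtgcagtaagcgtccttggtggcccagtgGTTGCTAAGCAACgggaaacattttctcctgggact
Dnah5: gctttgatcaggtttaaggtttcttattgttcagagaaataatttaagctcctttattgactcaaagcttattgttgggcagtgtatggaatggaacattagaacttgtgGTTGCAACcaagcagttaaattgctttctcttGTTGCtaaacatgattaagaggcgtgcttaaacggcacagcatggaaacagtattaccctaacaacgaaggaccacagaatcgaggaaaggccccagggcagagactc
Dnah11: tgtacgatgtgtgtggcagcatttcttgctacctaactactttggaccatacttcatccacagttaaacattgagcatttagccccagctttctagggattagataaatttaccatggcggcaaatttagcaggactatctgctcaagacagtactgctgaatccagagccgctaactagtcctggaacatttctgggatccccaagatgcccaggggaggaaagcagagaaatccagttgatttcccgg
Dnah2: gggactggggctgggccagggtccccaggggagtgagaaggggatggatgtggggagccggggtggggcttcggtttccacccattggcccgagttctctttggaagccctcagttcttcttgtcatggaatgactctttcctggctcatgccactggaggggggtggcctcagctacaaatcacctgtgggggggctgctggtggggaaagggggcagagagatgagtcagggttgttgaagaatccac

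Dnah6 held the full X-box GTTGCTAAGCAAC, from 36 to 24 bases before the start. It was the only one of the 7 family windows with a full X-box, and the form with 3 free bases (GTTGCNNNGCAAC) was found in 0.207% of 32851 promoter windows of the same length. The forms with 2 free bases (GTTGCNNGCAAC) and 1 free base (GTTGCNGCAAC) were found in 0.00609% and 0.0244% of them. The half-site alone lay in 5 of the 7 family windows (Dnah1, Dnah5, Dnah6, Dnah9 and Dnah12) and in 29.9% of all windows, and it is counted again inside each full X-box. Dnah5 held it 3 times, and 2 of these matches overlapped on opposite strands. The Dnah2 and Dnah11 windows held no match to these letters. The forkhead letters GTAAACA, searched on both strands, were in none of the 7 windows and in 3.17% of all windows.

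Signals are the log2 processed signal of each probe after quantile normalization within a generation, and probes of different genes cannot be ranked against each other on that scale. The median processed intensity of an array was 148 to 262 in MD F2, 151 to 262 in CD F2, 167 to 262 in MD F1 and 251 to 318 in CD F1. Slides 1 to 3 held the F1 arrays and slides 4 to 6 the F2 arrays, each slide carried 2 CD and 2 MD arrays, and there was 1 scan day per generation, so that generation cannot be told apart from slide and scan day. Over all probes, MD F1 replicate 6 correlated with the other F1 arrays at a mean of 0.985 against 0.9922 to 0.9939 for the rest. CD F2 replicate 6 and MD F2 replicate 3 did so at 0.9766 and 0.9738 against 0.9857 to 0.9876 for the rest of F2. The signal of 4 Y-linked genes minus that of Xist also split the F2 pools. It ran from -7.66 to -7.43 in CD F2 replicates 3 and 5 and MD F2 replicate 6. In the other F2 pools it ran from 5.23 to 7.26, and in F1 from -2.30 to 0.16. Generation also came with this split and with the change of hybrid label given above, and cannot be told apart from either.

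The F1 comparison asks whether the heavy chains differed between offspring of methyl donor and control fathers. No member passed the threshold of a false discovery rate (FDR) under 0.1 in limma over all probes, where 13 of 39429 probes did (0.033%). No member had an unadjusted p under 0.05 either, against 14.4% of all probes, and no member had MD F1 and CD F1 arrays that did not overlap, against 1.79% of the probes with a value on every array. The fitted means of 5 members lay above the control and that of Dnah9 below it, with a median difference of 0.088 on the log2 scale against 0.00647 over all probes. Without normalization between arrays all 6 lay below the control, and the median over all probes was then also below 0, at -0.28.

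Among the outer arm chains, Dnah5, a heavy chain of the outer arm along the whole cilium, was read at 7.14, 7.31 and 8.56 (lowest, median and highest log2 signal) in CD F1 and at 7.16, 7.53 and 8.34 in MD F1. The ranges overlapped almost whole, and each group held 1 array far above the rest, CD F1 replicate 3 and MD F1 replicate 6. The difference was 0.11 (SE 0.25, 95% confidence interval -0.44 to 0.66, limma adjusted p = 0.848, exact permutation p = 0.593).

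Dnah11, the outer arm chain of the proximal cilium, was at 7.16, 7.43 and 7.61 in CD F1 and at 6.88, 7.56 and 8.44 in MD F1. The MD F1 arrays lay both above and below all control arrays, the lowest being replicate 6. The difference was 0.30 (SE 0.23, interval -0.20 to 0.80, limma adjusted p = 0.559, exact permutation p = 0.277).

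Leaving out 1 F1 array at a time moved the Dnah11 difference between 0.15 (without MD F1 replicate 5) and 0.46 (without MD F1 replicate 6), with an unadjusted limma p under 0.05 in 1 of 12 fits, the last. With the choroid plexus level as a covariate it was 0.18 (SE 0.18). With the Y-linked minus Xist measure as a covariate it was 0.70 (SE 0.18, limma adjusted p = 0.345), with an unadjusted p under 0.05, and that measure ran from -2.15 to 0.16 in MD F1 and from -2.30 to -1.90 in CD F1.

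Dnah9, the outer arm chain of the distal cilium, was not always detected: it was well above background on all 6 CD F1 arrays and on 5 of 6 in each other group. In F1 it was at 3.78, 4.53 and 4.83 in the controls and at 3.40, 3.99 and 4.60 in MD F1, with overlapping groups. The difference was -0.41 (SE 0.22, interval -0.88 to 0.06, limma adjusted p = 0.399, exact permutation p = 0.115).

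Of the inner arm chains, Dnah2 was at 9.26, 9.44 and 9.82 in CD F1 and at 9.41, 9.73 and 10.12 in MD F1. The upper MD F1 arrays passed the highest control and the lower ones lay among the controls. The difference was 0.27 (SE 0.14, interval -0.03 to 0.56, limma adjusted p = 0.384, exact permutation p = 0.108).

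Dnah6 had the tightest control group of the family in F1, at 10.50, 10.59 and 10.66, against 10.44, 10.62 and 10.84 in MD F1. The SD was 0.056 in CD F1 and 0.20 in MD F1, so that the MD F1 pools spread to both sides of the controls around nearly the same mean. The difference was 0.04 (SE 0.09, interval -0.15 to 0.23, limma adjusted p = 0.855, exact permutation p = 0.649).

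Dnah1, another inner arm chain, was at 5.76, 5.96 and 6.25 in CD F1 and at 5.79, 5.93 and 6.56 in MD F1. The medians were nearly the same, and the difference was 0.06 (SE 0.14, interval -0.24 to 0.37, limma adjusted p = 0.852, exact permutation p = 0.71).

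**Figure D1:**
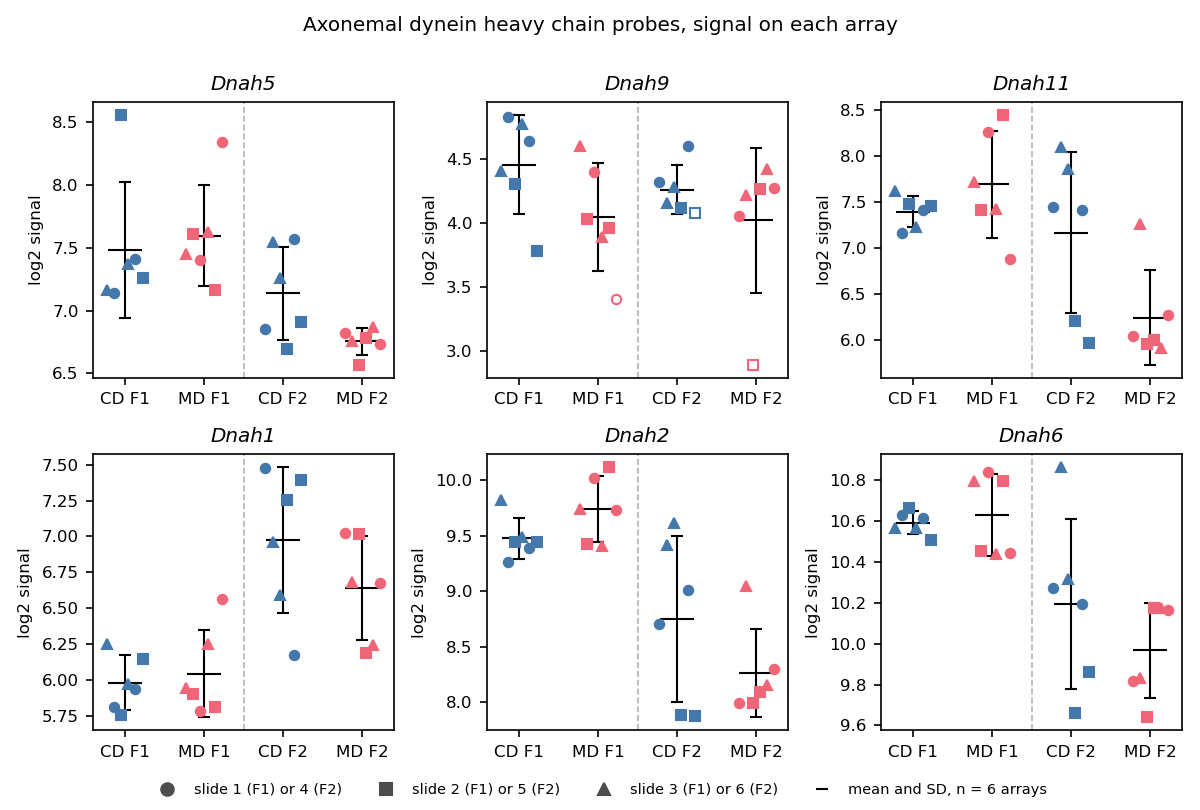
Log2 signal of each of the 6 dynein heavy chain probes (y axis, scale set per panel) in the 4 groups (x axis), after normalization within each generation. Each point is 1 array of a pool of 4 mice, its shape gives the slide and its colour the diet line, open points are arrays on which the probe was not well above background, bars give the mean and SD, and the dashed line parts the separately normalized generations. The MD F2 arrays of Dnah11 sit between 5.91 and 6.27 except replicate 2 at 7.26, while the CD F2 arrays reach 8.09.

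The F2 comparison asks the same of the grandoffspring. The fitted means of all 6 members lay below the control, with a median difference of -0.36 against 0.0148 over all probes. No member passed an FDR of 0.1, and neither did any of the 39423 probes tested (0%). Dnah5 and Dnah11 had an unadjusted limma p under 0.05, as 5.6% of all probes did, or 2.38% counting only lower ones. No member had groups that did not overlap, against 0.352% of the probes with a value on every array.

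Dnah11 had the largest difference of the family. CD F2 replicates 1 to 6 read 7.44, 8.09, 7.86, 6.21, 7.41 and 5.97, and MD F2 replicates 1 to 6 read 6.05, 7.26, 5.95, 6.00, 5.91 and 6.27. The controls thus split into 4 high and 2 low arrays, and MD F2 had 1 high array, replicate 2, and 5 arrays near the low controls. The difference was -0.92 (SE 0.39, interval -1.77 to -0.08), a signal 0.527 times that of the controls, with a limma adjusted p = 0.89. The two-sided exact permutation p was 0.039, where 0.00216 is the smallest that 6 against 6 arrays allow, and 0 of 6 MD F2 arrays lay above the control median.

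Dnah5 was at 6.70, 7.08 and 7.57 in CD F2 and at 6.56, 6.77 and 6.87 in MD F2. The MD F2 arrays formed a tight group (SD 0.10 against 0.37) at the lower end of the controls, and 0 of 6 lay above the control median. The difference was -0.38 (SE 0.15, interval -0.72 to -0.05, limma adjusted p = 0.89, exact permutation p = 0.039).

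These unadjusted results depended on single arrays. Over the 12 limma fits that each left out 1 F2 array, the Dnah11 difference ran from -1.16 to -0.74, and its unadjusted p was under 0.05 in 3 of 12, those without CD F2 replicate 4, CD F2 replicate 6 or MD F2 replicate 2. That of Dnah5 ran from -0.47 to -0.30 and was under 0.05 in 8 of 12, the exceptions being the fits without CD F2 replicates 2, 3 or 5 or MD F2 replicate 3. Without both F2 arrays that stood apart the differences were -1.10 for Dnah11 and -0.39 for Dnah5, both with an unadjusted limma p under 0.05.

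Dnah2 was at 7.88, 8.86 and 9.62 in CD F2 and at 7.99, 8.12 and 9.04 in MD F2. Its high and low arrays were those of Dnah11: CD F2 replicates 1, 2, 3 and 5 and MD F2 replicate 2 were the highest 5 of 12 for both probes. The difference was -0.49 (SE 0.32, interval -1.19 to 0.22, limma adjusted p = 0.919, exact permutation p = 0.184). With slide as a block its unadjusted limma p also came under 0.05, beside those of Dnah11 and Dnah5, and the SE of Dnah11 was 0.27 in place of 0.39.

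Dnah6 was at 9.66, 10.23 and 10.86 in CD F2 and at 9.64, 9.998 and 10.17 in MD F2. Its groups shared their lower end, and the difference was -0.23 (SE 0.19, limma adjusted p = 0.936, exact permutation p = 0.26), or -0.094 without CD F2 replicate 2. Dnah1 was at 6.18, 7.11 and 7.48 in CD F2 and at 6.19, 6.68 and 7.02 in MD F2, with overlapping groups. The Dnah1 difference was -0.34 (SE 0.24, limma adjusted p = 0.922, exact permutation p = 0.214). Dnah9 was at 4.08, 4.22 and 4.60 in CD F2 and at 2.89, 4.24 and 4.42 in MD F2. Its lowest array, MD F2 replicate 3, was one on which it was not well above background, and the difference was -0.24 (SE 0.23, limma adjusted p = 0.936, exact permutation p = 0.461). Without that array it was -0.012.

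The F2 differences were not even over the slides. On slides 4 and 6 Dnah11 differed by -1.27 and -1.39, but on slide 5, which held the low CD F2 replicates 4 and 6, by -0.11. Dnah2 ran -0.71, 0.16 and -0.92 over slides 4, 5 and 6, and Dnah6 ran -0.24, 0.15 and -0.59. Dnah5 was lower in MD F2 on each slide, by 0.43, 0.13 and 0.59. The F2 labels also carry the codes lh and rh, which no source used here explains, on 3 arrays each per group. Dnah11 differed by -1.38 among the lh and -0.47 among the rh arrays, and Dnah6 by -0.72 and 0.27.

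In F1 the slides differed too. Dnah5 ran 0.59, -0.52 and 0.27 over slides 1 to 3, while Dnah11 was higher in MD F1 on each of them, by 0.28, 0.46 and 0.14.

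**Figure D2:**
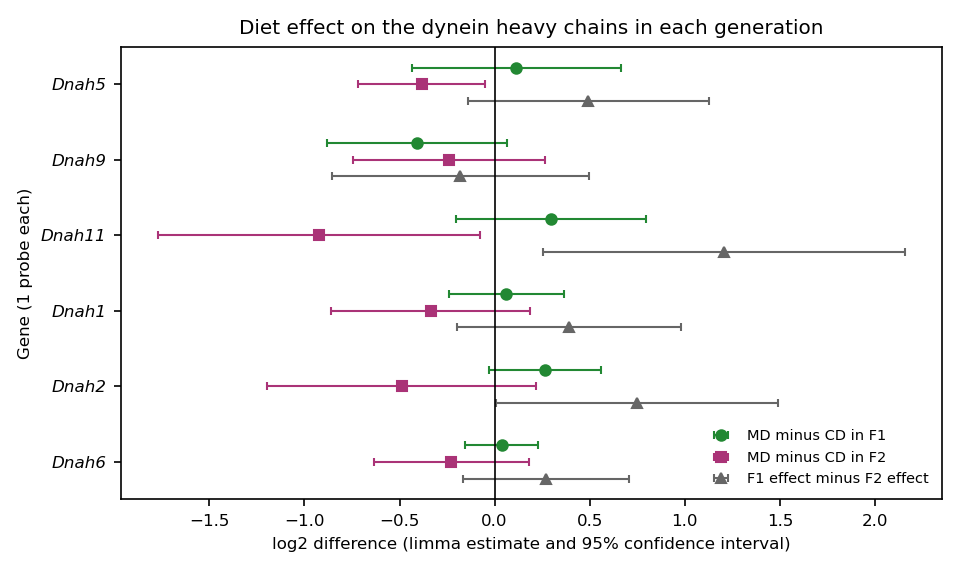
Difference between the methyl donor and the control line (x axis, log2 scale) for each heavy chain gene (y axis, 1 probe each) in F1 and in F2, with limma estimates and 95% confidence intervals from 6 arrays per group. The F2 intervals of Dnah11 (-1.77 to -0.08) and Dnah5 (-0.72 to -0.05) exclude 0 before adjustment, and all F1 intervals include it. The F1 estimates above 0 lay below it without normalization between arrays, as did the median of all probes (-0.28).

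Whether the diet difference itself changed from F1 to F2 was tested as 1 contrast over all 24 arrays, the F1 difference minus the F2 difference. No member passed an FDR of 0.1, where 5 of 39423 probes did (0.0127%). It was positive for 5 of 6 members, with a median of 0.44 against -0.0131 over all probes. Dnah11 and Dnah2 had an unadjusted limma p under 0.05, as did 8.29% of all probes, or 3.7% counting only positive ones.

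For Dnah11 the contrast was 1.20 (SE 0.46, interval 0.25 to 2.16, limma adjusted p = 0.492). Leaving out single arrays moved it between 1.02 and 1.44, with an unadjusted p under 0.05 in 24 of 24 limma fits. For Dnah2 it was 0.75 (SE 0.36, interval 0.01 to 1.49, limma adjusted p = 0.599), and its unadjusted p stayed under 0.05 in 6 of the 24 limma fits that each left out 1 array. The contrast was 0.49 for Dnah5 (SE 0.31), 0.39 for Dnah1 (SE 0.28), 0.27 for Dnah6 (SE 0.21) and -0.18 for Dnah9 (SE 0.33), with limma adjusted p from 0.7 to 0.93.

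Normalized over all 24 arrays, Dnah2, Dnah5 and Dnah6 shared 1 order of group means, MD F1 above CD F1 above CD F2 above MD F2, with spans of 1.18, 0.516 and 0.362 on the log2 scale. Dnah11 had the same ends but CD F2 above CD F1, over a span of 1.11. Dnah1 ran the other way between generations, with CD F2 highest and CD F1 lowest, over 1.36. Dnah9 also had its highest mean in CD F2, and MD F1 was lowest, over 0.769. Neighbours of 1 generation in these orders are the diet pairs tested above, none of which differed after adjustment, and the step between generations was not tested.

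Since no member had more than 1 probe, agreement between probes of 1 gene could not be read, and agreement was read between genes, as Pearson's r of deviations from the group means over the 12 arrays of a generation. These arrays share slides and a normalization, and the values are descriptions. Leaving out Dnah9, the 10 pairs of the other 5 probes had a median r of -0.174 in F1 (-0.71 to 0.777, 4 of 10 above 0) and of 0.613 in F2 (-0.715 to 0.967, 6 of 10 above 0).

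Dnah2, Dnah6 and Dnah11 deviated together in F1: r was 0.777 for Dnah6 with Dnah11, 0.709 for Dnah2 with Dnah11 and 0.619 for Dnah2 with Dnah6. In F2 Dnah2 and Dnah11 were nearly parallel, at 0.967, and at 0.957 without the arrays that stood apart. The same 5 F2 arrays were the highest for both probes, as described above, and r within the high or the low arrays was not taken.

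Dnah5 had r of 0.71 with Dnah6, 0.672 with Dnah2 and 0.602 with Dnah11 in F2, against -0.471 with Dnah11 in F1. The change between generations was not tested. In F1 Dnah5 also had r of -0.268 with Dnah6 and -0.259 with Dnah2, and of 0.209 with Dnah1. Dnah1 had r of -0.71 with Dnah6 in F1 and of -0.715 with Dnah5 in F2. Its r was below 0 with each of the other 4 in F2.

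**Figure D3:**
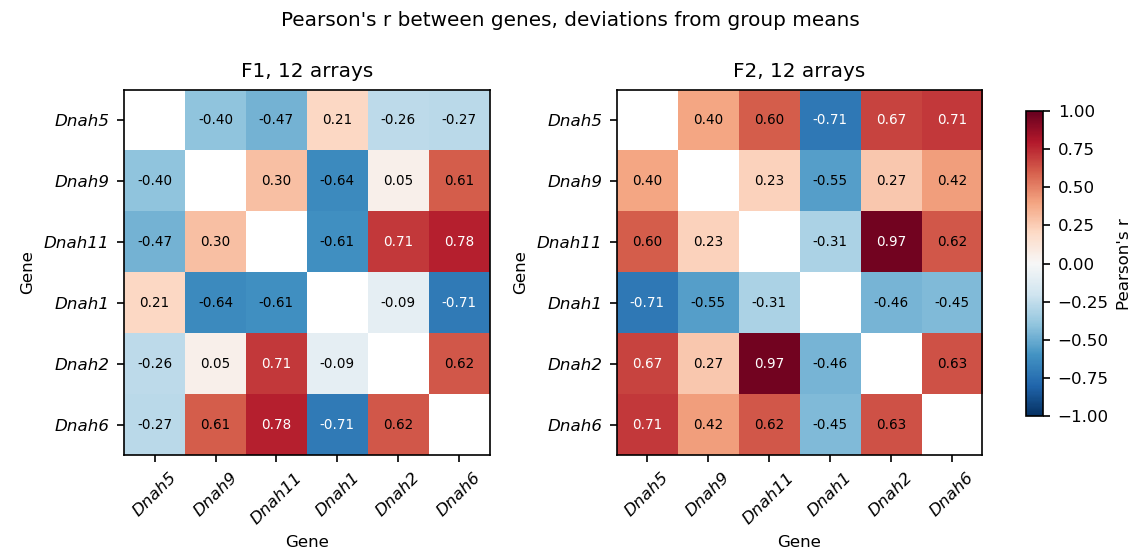
Pearson's r (colour and number) between the deviations of 6 heavy chain probes from their group means, over 12 arrays in F1 (left) and 12 in F2 (right), with genes on both axes. Dnah2, Dnah6 and Dnah11 are positive with each other in F1, Dnah2 with Dnah11 reaches 0.967 in F2, and the Dnah1 row is mostly below 0.

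The ependymal and choroid plexus marker lists moved with part of the family. All 12 ependymal genes, among them those of axonemal and tektin proteins, had higher means in MD F1 (5 with an unadjusted limma p under 0.05, median 0.30), and 11 of 12 had lower means in MD F2 (6 with such a p, median -0.74). Over all probes 6.96% were higher with such a p in F1 and 2.38% lower in F2. None of the 12 passed an FDR of 0.1. The mean log2 signal of the list ran from 8.88 to 9.05 in CD F1, 9.02 to 9.63 in MD F1, 8.15 to 9.27 in CD F2 and 8.01 to 8.83 in MD F2.

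All 14 choroid plexus genes had higher means in MD F1 (median 0.47) and lower means in MD F2 (median -2.26). In either generation 0 of 14 had an unadjusted limma p under 0.05, against 14.4% of all probes in F1 and 5.6% in F2. The mean log2 signal of that list ran from 7.36 to 10.16 in CD F1, 7.42 to 11.37 in MD F1, 6.84 to 12.09 in CD F2 and 6.76 to 11.28 in MD F2. All 14 were well above background on every F1 array, and 10 of 14 on every F2 array, the exceptions being Kcne2, Cldn2, Slc4a5 and Aqp1. In F2 it was highest on CD F2 replicates 1, 2, 3 and 5 and MD F2 replicate 2, the same 5 arrays on which Dnah2 and Dnah11 were highest. Those of Dnah6 shared 4 of the 5, those of Dnah5 and Dnah9 3, and those of Dnah1 1.

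The single genes followed the ependymal list to unlike degrees. In F1 the deviations of Dnah11 had r = 0.945 with it, Dnah6 0.824 and Dnah2 0.819, against -0.394 for Dnah5 and -0.528 for Dnah1 (12 arrays each). In F2 the values were 0.966 for Dnah11, 0.957 for Dnah2, 0.651 for Dnah5, 0.537 for Dnah6 and -0.447 for Dnah1. All these points share an array's RNA and normalization.

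With the choroid plexus level as a covariate in the limma fit, the F2 difference of Dnah11 was -0.31 (SE 0.17), that of Dnah5 -0.25 (SE 0.16) and that of Dnah2 -0.0062 (SE 0.19), and 0 of 6 members had an unadjusted p under 0.05. That of Dnah1 was -0.41 (SE 0.28), against -0.34 without the covariate. The contrast between generations became 0.49 for Dnah11 (SE 0.25) and 0.22 for Dnah2 (SE 0.23), neither with an unadjusted p under 0.05. Shares of all probes with such a p were not taken for these fits.

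Marker lists of neurons and other regions had smaller medians. Hippocampal neuron genes had lower means in MD F1 for 6 of 6 and in MD F2 for 4 of 6 (medians -0.16 and -0.12). Thalamic genes had lower means for 6 of 9 in MD F1 and higher means for 6 of 9 in MD F2 (medians -0.15 and 0.15), and striatal genes for 6 of 10 and 7 of 10 (medians -0.06 and 0.07). The part of these lists in the heavy chain values was not tested.

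**Figure D4:**
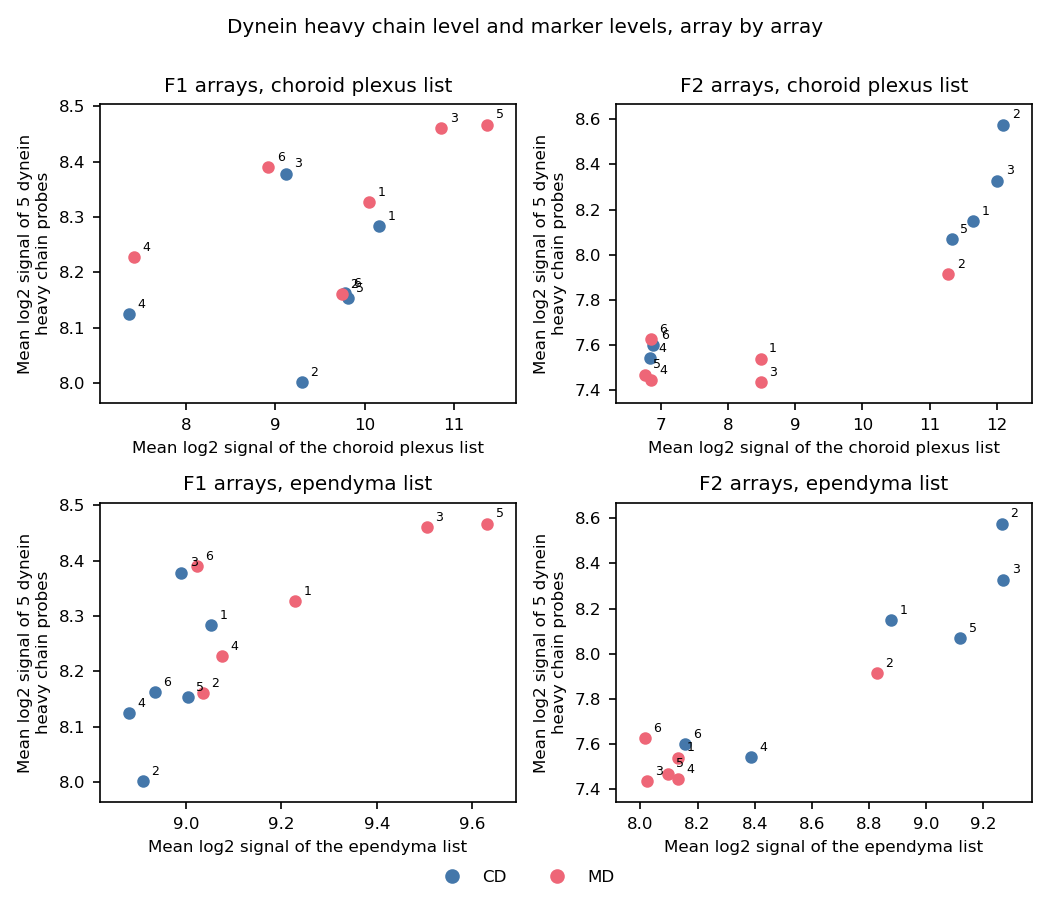
Mean log2 signal of the 5 heavy chain probes that were well above background on every array (y axis) against the mean log2 signal of the ependymal and choroid plexus lists (x axes), for F1 and F2 arrays. Each point is 1 array, numbered by replicate and coloured by diet line (CD or MD), and in F2 the 5 arrays on the right of the choroid plexus panel are also the 5 highest for the family.

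Averaged over those 5 probes, the family stood at 8.18 ± 0.13 in CD F1 and 8.34 ± 0.13 in MD F1 (SD, n = 6), and at 8.04 ± 0.41 in CD F2 and 7.57 ± 0.18 in MD F2 (SD, n = 6). MD F2 spread from 7.44 to 7.92 and CD F2 from 7.54 to 8.58, so the groups overlapped.

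Of 8 further axonemal heavy chains, only Dnah8 and Dnah10 were measured. Each had 3 probes, and only 1 of each was well above background on all 24 arrays. The bright Dnah10 probe, for an inner arm chain, differed by 0.29 in F1 (limma adjusted p = 0.202) and by -0.49 in F2 (limma adjusted p = 0.89), with a contrast between generations of 0.78 (limma adjusted p = 0.21). The bright Dnah8 probe, for an outer arm chain best known from sperm, ran the other way, at -0.10 in F1 and 0.29 in F2. A second Dnah10 probe, well above background on 12 of 12 F1 and 3 of 12 F2 arrays, gave -0.05 and 0.09, so the probes of this gene disagreed.

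Among the partners of the heavy chains no gene passed an FDR of 0.1 in any of the 3 tests. Of 10 intermediate and light chains, which anchor and regulate the motors, 9 had higher means in MD F1 (3 with an unadjusted limma p under 0.05, median 0.18), and 6 had lower means in MD F2 (5 with such a p, median -0.40), where the shares over all probes with such a p were 14.4% in F1 and 5.6% in F2. The outer arm intermediate chain Dnai2 differed by 0.39 in F1 (SE 0.10, limma adjusted p = 0.199) and by -0.53 in F2 (SE 0.19, limma adjusted p = 0.89). The inner arm light chain Dnali1 differed by -0.83 in F2 (SE 0.31), and the light chain Dynlrb2 by 0.43 in F1 (SE 0.20) and -0.75 in F2 (SE 0.28). Nme8, another outer arm component, differed by 0.88 in F1 (SE 0.23, limma adjusted p = 0.205). Its probe was dim, well above background on 11 of 12 F1 and 0 of 12 F2 arrays. Its lower mean in MD F2 (-0.31), counted above, thus rests on signal near background.

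Of 13 factors that fold and preassemble dynein arms in the cytoplasm, 12 had higher means in MD F1 (8 with an unadjusted limma p under 0.05, median 0.24, against 14.4% of all probes with such a p), and 8 had lower means in MD F2 (median -0.05). In F2, 1 was lower and 1 higher with such a p, against 5.6% of all probes. Cfap298, Zmynd10 and Ccdc103 differed by 0.25, 0.30 and 0.34 in F1, and in F2 Dnaaf3 differed by -0.997 (SE 0.35) and Ccdc103 by 0.27 (SE 0.10). Of the 3 docking genes measured, Clxn differed by -0.32 and Odad3 by 0.24 in F1, and none had an unadjusted p under 0.05 in F2.

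Of 13 genes of nexin links, radial spokes and central pair, the parts against which the arms work, 10 had higher means in MD F1 and 10 lower means in MD F2 (medians 0.08 and -0.20). With an unadjusted limma p under 0.05, 4 were higher and 2 lower in F1, and 0 were higher and 1 lower in F2. Over all probes 6.96% were higher and 7.48% lower with such a p in F1, and 3.22% and 2.38% in F2. Rsph1, of the radial spokes, differed by 0.45 in F1 (SE 0.14) and -0.61 in F2 (SE 0.27), and Spag6l and Ccdc65 by 0.27 and 0.29 in F1. The lower ones in F1 were Spef2 (-0.84, SE 0.36) and Spag17 (-0.42, SE 0.17). Spef2 had an SD of 0.94 in MD F1 against 0.26 in CD F1. Spag17 was well above background on only 6 of 12 F1 and 3 of 12 F2 arrays. Of the 13 genes, 12 were well above background on every F1 array and 10 on every F2 array. The 8 transcription factors of motile cilia were divided 4 to 4 in F1 and 3 higher to 5 lower in F2. With an unadjusted limma p under 0.05, 3 were higher and 0 lower in F1, and 1 was higher and 1 lower in F2. Of all probes, 14.4% had such a p in F1 and 5.6% in F2. Ccno, which acts in the program that makes multiciliated cells, differed by 0.20 in F1 (SE 0.08) and by 0.35 in F2 (SE 0.07, limma adjusted p = 0.89), so higher in both generations. Foxj1, a master regulator of motile cilia, differed by 0.46 in F1 (SE 0.12, limma adjusted p = 0.204) and by -0.58 in F2 (SE 0.21, limma adjusted p = 0.89), with a contrast between generations of 1.05 (limma adjusted p = 0.266).

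Of 11 cytoplasmic dynein genes, 4 had higher and 7 lower means in F1 and 3 higher and 8 lower means in F2, with medians of -0.01 and -0.09. With an unadjusted limma p under 0.05, 0 were higher and 1 lower in F1 (Dynlt3, -0.36), against 14.4% of all probes. In F2, 0 were higher and 1 lower with such a p (Dync1i2, -0.20), against 5.6% of all probes.

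**Figure D5:**
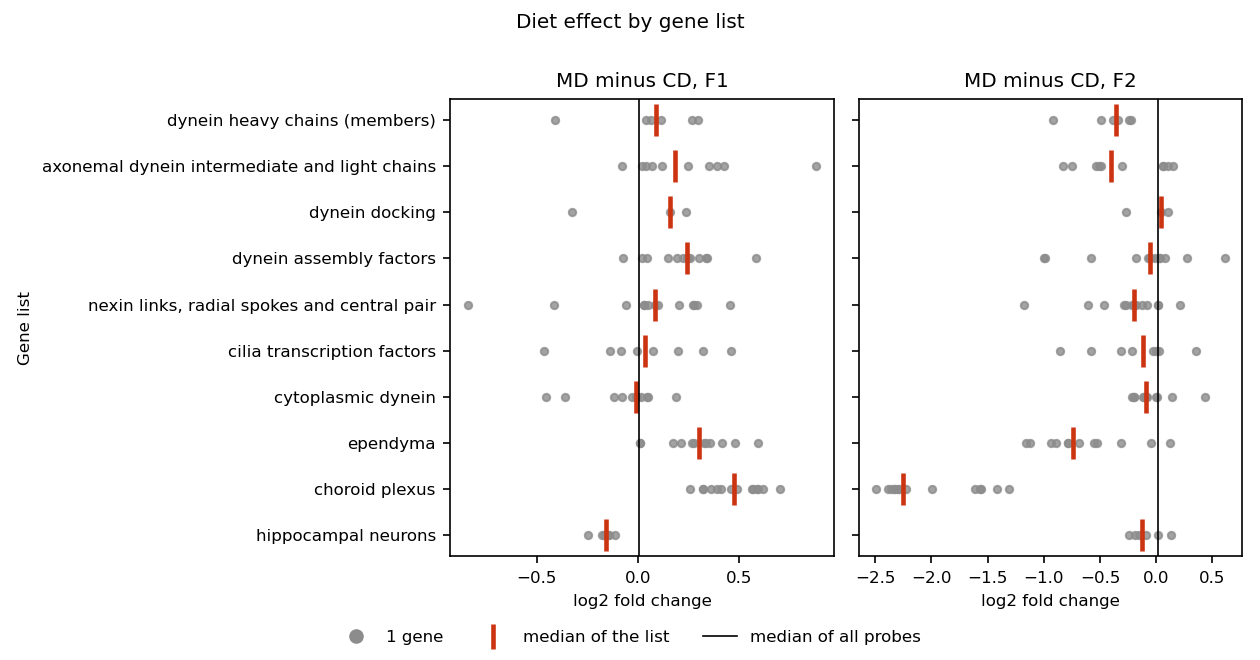
Log2 fold change of every gene (points) in the family and in each related list (y axis) for MD against CD in F1 and in F2 (x axes, whose ranges differ between the panels), with the list median as a bar and the median of all probes as a vertical line. The family median is 0.088 in F1 and -0.36 in F2, and the choroid plexus median is 0.47 and -2.26. Without normalization between arrays the F1 family median lay below 0, as did the median of all probes (-0.28).

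The genes whose deviations were most like the mean of the 5 bright family probes, by Pearson's r over 12 arrays, were Hfe (0.849), Lmnb2 (0.847), Vat1l (0.844), Upb1 (0.841) and 2810408A11Rik (0.833) in F1, out of 16066 genes. In F2 they were Cfap65 (0.974), Cpt1a (0.972), Pcolce2 (0.971), Cfap70 (0.967) and Rsph1 (0.965), out of 13856 genes. Cfap65, Cfap70 and Rsph1 encode axonemal proteins. In F2, 333 genes (2.4%) had an r over 0.8, against 8 genes (0.0498%) in F1. The 50 most alike genes of both generations shared 3, Cfap65, Lama5 and Sowahc. In F1 the 5 averaged probes had a median r of -0.174 with each other, so their mean was not a pattern shared by the family. Without the 2 arrays farthest from the median, only Hfe in F1 and Rsph1 in F2 stayed among the 5 genes most alike.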

How the data were processed

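Per the labels, hippocampal RNA was hybridised to Mouse GE 4x44K arrays (version 2 of the design). The authors deposited Agilent Feature Extraction output (version 10.7.3.1 per the file headers) with background-subtracted spot intensity, not normalized between arrays. They also deposited a table of processed intensities, which was put on the log2 scale here. Here log2 processed signals were quantile-normalized within each generation (over 24 arrays for the contrast of generations), spots of 1 probe were averaged, and limma 3.58.1 in R 4.3.3 was fitted over all probes, with Benjamini-Hochberg adjustment over all probes and an FDR threshold of 0.1. Spots marked as non-uniform or population outliers were left out, and none of these was a family probe.

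Single probes also received a two-sided exact permutation test over 924 splits of 6 against 6 arrays. A probe was well above background by the scanner's own mark. The number of arrays, not read depth, limits the precision. The scripts were tested on simulated data with known changes.

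Members and lists were chosen with earlier results of these data known. Named were all members, Foxj1 and the 5 genes most like the family in each generation. From the lists of dynein, other axonemal genes and transcription factors, at most 4 with an unadjusted limma p under 0.05 were named by smallest p. Rsph9 (0.28 in F1, 0.017 in F2) and Trp73 (0.32 and 0.024) met that rule but are not described above. Genes of the ependymal, hippocampal neuron, thalamic and striatal lists met it too and are not described singly. Dnah8, Lama5, Sowahc, Spef2, Spag17 and the dim choroid plexus genes were named after their values were seen. List genes were read by their brightest probe in each comparison, so 5 of them (Odad4, Spag16, Trp73, Tekt1 and Tcf7l2) rest on different probes in F1 and F2. Alternatives covered scaling, background (normexp with offset 50 on median spot signals, in place of the planned mean signals) and the authors' processed table. They also covered dim probes, 1 probe per gene, slide, replicate number, lh or rh code, sex measure, choroid plexus level, array weights and single arrays. Promoter windows came from RefSeq (GRCm38.p6), in which all 7 genes were matched.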

Additional observations from a re-analysis of the deposited data

Results flagged for a closer look

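Among 24 sets of 6 arrays (6 probes in 4 groups), 4 held an array far from the other 5, where chance alone marks about 1 in 20 sets. Dnah11 read 7.26 on MD F2 replicate 2 against 5.91 to 6.27 on the other MD F2 arrays, and Dnah2 read 9.04 there against 7.99 to 8.30. The choroid plexus list was also highest in MD F2 on that array (mean log2 signal 11.28). Dnah5 read 8.56 on CD F1 replicate 3 against 7.14 to 7.41 on the other CD F1 arrays. Dnah9 read 2.89 on MD F2 replicate 3 against 4.05 to 4.42, and it was not well above background there. The part of any technical difference in these values was not tested.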

How the results depend on the processing

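All 6 members had lower means in MD F2 under each of 16 settings and in each fit that left out 1 F2 array. The contrast of generations was positive for the same number of members, 5 of 6, under each of 14 settings. Not all of these settings could move a member's value. An FDR of 0.05, slide, replicate and code blocks, and filters for dim probes and 1 probe per gene kept the F2 median at -0.36. Apart from the code block, which was for F2 only, they kept that of the contrast at 0.44. Their agreement with the main fit is no further check. The F1 direction depended on scaling. Without normalization between arrays, where the median of all probes was -0.28, Dnah1 was at -0.32, Dnah5 at -0.22, Dnah6 at -0.23, Dnah11 at -0.060, Dnah2 at -0.029 and Dnah9 at -0.84 (limma FDR 0.0876), and the median of the members was -0.22. In the normalized fit, where it was 0.088, it ran from 0.02 to 0.16 when single arrays were left out. Without normalization the members' median was 0.0589 above that of all probes, and 7952 of 39429 probes passed an FDR of 0.1, Dnah9 among them. Dnah1 also turned with 75th percentile scaling (-0.065), the sex measure (-0.15), array weights (-0.035) and without MD F1 replicate 6, the F1 array that stood apart (-0.042), Dnah5 with the sex measure (-0.23), array weights (-0.034) and without MD F1 replicate 6 (-0.035), and Dnah6 without MD F1 replicate 3 (-0.0046). Without single arrays Dnah1 ran to 0.12, Dnah5 to 0.33 and Dnah6 to 0.076.

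Members with an unadjusted limma p under 0.05 in F1 (0 as reported) were 1 with 75th percentile scaling, with the replicate block and without the array that stood apart, 2 without normalization, with normexp and with the sex measure, and 0 to 1 without single arrays. In F2 (2 as reported) they were 0 without normalization and with the choroid plexus covariate, 1 with the sex measure and in the fit of 24 arrays, 3 with slide block (Dnah2 added) and with array weights (Dnah1 added), and 0 to 2 without single arrays. For the contrast (2 as reported) they were 0 without normalization and with the choroid plexus covariate, 1 with 75th percentile scaling, normexp and the sex measure, 3 with array weights (Dnah1 added), and 1 to 2 without single arrays. With array weights the Dnah11 contrast was 1.53 (limma FDR 0.0782), a setting under which 543 of 39423 probes passed an FDR of 0.1. Shares of all probes with an unadjusted p under 0.05 were not taken for these settings, so these counts of members have no background.

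Probes called over the whole array in F1 (13 as reported) were 0 with slide block, replicate block, sex measure or an FDR of 0.05, 2 with the choroid plexus covariate, 4 with 75th percentile scaling or 1 probe per gene, 5 with normexp, 6 among brighter probes, 73 in the fit of 24 arrays, 540 with array weights, 7952 without normalization, and 0 to 152 without single arrays, the most without MD F1 replicate 6. In F2 they were 18 in the fit of 24 arrays and 0 to 1 without single arrays. For the contrast (5 as reported) they were 0 without normalization, 1 with the choroid plexus covariate, 9 with normexp, 11 among brighter probes, 12 with 1 probe per gene or the sex measure, 22 without the arrays that stood apart (chosen after seeing the data), 27 with the replicate block, 543 with array weights, and 3 to 41 without single arrays. The cause of these changes was not tested. Same-numbered arrays deviated together in 1 of 6 F1 pairs and 3 of 6 F2 pairs (r over 0.1), so the numbers were not taken as pairs. The 5 genes most like the family kept 3 (F1) and 2 (F2) by Spearman's rho, and 1 and 1 without the 2 arrays farthest from the median.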
